A study of Homo sapiens with 12 samples.

Results

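The translation initiation and elongation factors are the proteins that bring the ribosome to a messenger RNA, set it on the start codon and drive each step of reading. Their genes were taken by name: protein-coding genes whose symbol begins with EIF1 to EIF6, EEF1 or EEF2, leaving out the eIF2 kinases (EIF2AK). This gave 67 genes, 52 EIF and 15 EEF, of the 58735 in the table, 19951 of them protein coding. All 12 libraries came from TFK1, a wild-type human cholangiocarcinoma (bile duct cancer) cell line, which is 1 line and so 1 genetic background. The groups of 3 were TFK1 given radiation (6 Gy) together with nab-paclitaxel, the albumin-bound form of the microtubule drug paclitaxel (1.62 ng/ml), TFK1 given 6 Gy alone, TFK1 given 1.62 ng/ml nab-paclitaxel alone, and a blank control. RNA was taken 24 h after treatment, and messenger RNA was sequenced. The series compares the joint treatment with each single treatment and with control, to ask how nab-paclitaxel sensitizes these cells to radiation. The replicates carry the label biological, and whether they were separate cultures is not stated. Since RNA was drawn from whole cultures, a lower value cannot be told apart as fewer cells of a kind or less of that RNA per cell.

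As background, initiation begins when eIF2 carries the initiator tRNA to the small ribosomal subunit, helped by eIF1, eIF1A and the large eIF3 scaffold. The eIF4 proteins bind the cap of the mRNA and unwind its leader, the 4E-binding proteins hold back the cap-binding protein, and eIF2B recharges eIF2 after each round. Elongation is driven by eEF1, which delivers aminoacyl-tRNA, by eEF2, which moves the ribosome 1 codon on, and by eIF5A, which helps at stretches where ribosomes stall. Several of these mRNAs start with a run of pyrimidines, the terminal oligopyrimidine (TOP) tract, through which mTOR signalling controls their translation, and phosphorylation of eIF2 is the switch of the integrated stress response.

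Levels are given in FPKM, fragments scaled to gene length and to library size, as the authors deposited them. Fragment totals recovered from these values were 14840283 to 17992242 per library. A change is a difference on the log2(FPKM + 1) scale with its standard error (SE), tested with limma over all 13609 genes whose mean reached 1 FPKM, and passed at an adjusted p under 0.05. Of the 67 genes, 61 reached that mean. The other 6 were EIF4EBP3, EIF4E1B, EEF1E1-BLOC1S5, EEF1AKMT4-ECE2, EEF1G and EIF1AY, of which EEF1AKMT4-ECE2, EEF1G and EIF1AY were listed at 0 in every library. Biliary epithelial markers were mixed: KRT19 averaged 419 FPKM, EPCAM 107 FPKM and SOX9 86.9 FPKM over the 12 libraries, but KRT7 averaged 0.533 FPKM. Markers of hepatocytes, macrophages and endothelium averaged at most 0.719 FPKM each. Control 2, nab-paclitaxel 1 and combination 2 stood apart from the other libraries of their groups. They were each the lowest of their group in 12 of the 61 factors (19.7%, against 21.1% of all tested genes), among them EEF2, EIF4B, EEF1D, EIF2B5 and EIF4EBP1, and each the highest in 21 (34.4%, against 24.6%), among them EIF2S3, EIF2S1, EIF3E, EIF4A2 and EIF4E. The median coefficient of variation of the factors within a group was 9.46% in the combination, 4.52% in radiation, 14.7% in nab-paclitaxel and 12.4% in control.

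The elongation factors EEF1A1 and EEF2 stood far above every initiation factor. EEF1A1 had 1917, 1808 and 1886 FPKM in the combination, 1501, 1487 and 1522 after radiation, 2512, 2083 and 2031 after nab-paclitaxel, and 1982, 1938 and 1902 in control. EEF2 had 845, 698 and 858 FPKM in the combination, 846, 877 and 827 after radiation, 822, 1069 and 946 after nab-paclitaxel, and 1039.9, 802 and 1169 in control. The 61 tested genes spanned 3 orders of magnitude, with EEF1A1 at a mean of 1881 FPKM over all libraries and EIF4A1 at 1.02 FPKM. The next levels were those of EIF1 (133 FPKM), EEF1B2 (131 FPKM) and EIF4B (126 FPKM), whose ranges over the 12 libraries overlapped. Summed over all 67 genes and rescaled to TPM (transcript shares on a common total), the factors made up 13898 ± 1158 TPM in the combination, 12638 ± 318 in radiation, 16182 ± 788 in nab-paclitaxel and 15164 ± 1198 in control (SD, n = 3). The largest parts of the control sum were eEF1 (6511 TPM) and eEF2 with its kinase (2990 TPM), so the sum mainly reflects these few genes. Some of the low values belong to genes that share sequence with others. EEF1G, a subunit of eEF1, shares 99.9% of its exonic bases with the overlapping gene AP002990.1, and EIF4A1, a cap-complex helicase, shares 48.6% with other genes on its strand. Of the 50-base words of EIF3CL, 97.2% also occur in other genes, mainly EIF3C. The levels of these genes are uncertain, since the handling of shared reads is not given in the sources used here.

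**Figure D1:**
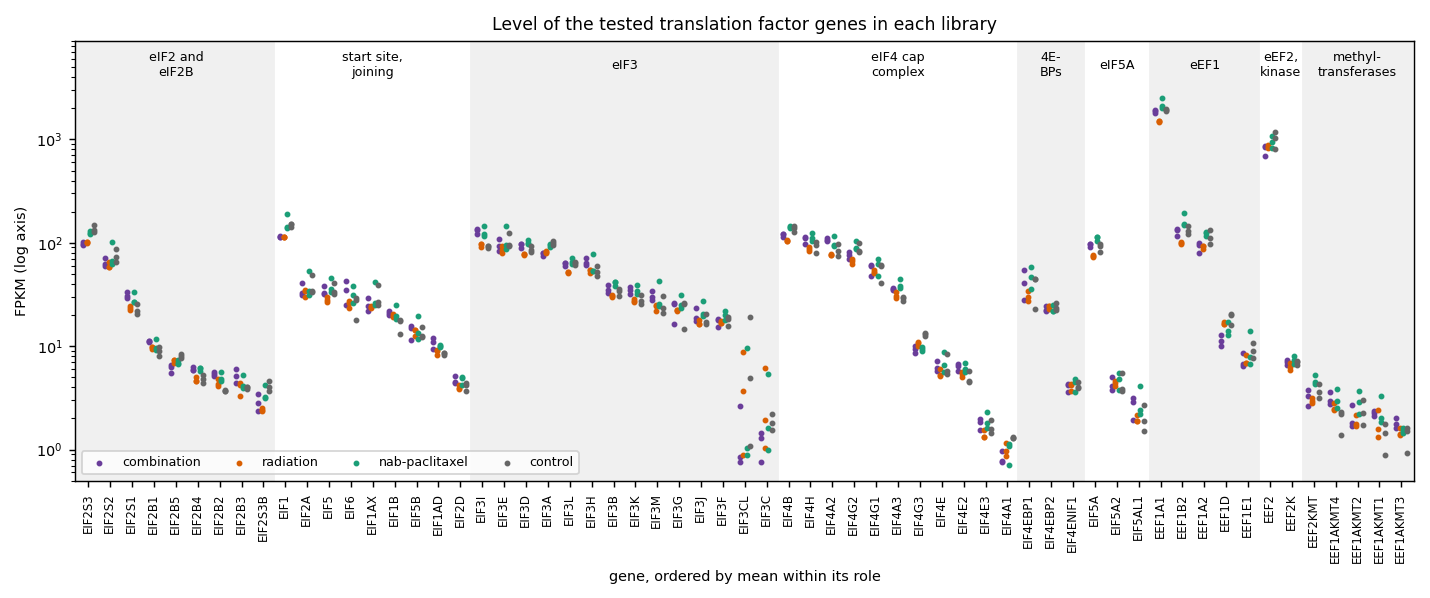
FPKM (log axis) of the 61 tested translation factor genes in each of the 12 libraries, grouped by role and ordered by mean within a role; each point is 1 library. EEF1A1 and EEF2 stand above all others, at means of 1881 and 899.9 FPKM, and EIF3CL and EIF3C have the widest ratio of highest to lowest library.

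In the combination, compared with control, 9 factors rose and 7 fell of 61. That is 26.2% of the factors, close to the 22.9% of all tested genes that passed, and the medians were 0.01 for the factors and 0.00 for all genes on the log2 scale. EIF3I, EIF4A2, EIF4A3, EIF3K, EIF2S1, EIF1AD, EIF2B4, EIF2B2 and EEF1AKMT4 rose, and EIF1, EIF2S3, EIF3A, EEF1D, EIF4G3, EIF2B5 and EIF2S3B fell. All 16 had non-overlapping groups, as did 24 factors in all, against 37.3% of all tested genes. With the replicate number as a block and only these 2 groups in the fit, an alternative chosen after the data were seen, 18 rose and 15 fell, while the block over all 12 libraries gave 8 and 7. The second of these fits passed 19.5% of all genes. The first passed 37.6%, with replicate numbers paired from these same values, since the labels state no pairing. Its 33 factors held all 16 above, and also EIF1B, EIF2B1, EIF2B3, EIF3H, EIF3M, EIF4E2, EIF4H, EIF6 and EEF1AKMT1, which were higher, and EEF1A2, EEF1E1, EEF2, EIF1AX, EIF2S2, EIF3C, EIF4B and EIF4G2, which were lower. Wherever that fit is cited for a single factor below, its p-value depends on this pairing and is no independent evidence of a change. The count was 27 without the 3 libraries that stood apart (44.3% of the factors, against 37.1% of all genes in that fit). It was 8 in a fit of the 2 groups alone without the block (13.1%, against 15.4%), and 8 to 22 with 1 library left out. There it was 8 without combination 1 or 3 (13.1%, against 15.6% and 14.4%) and 9 without control 3 (14.8%, against 17.1%). Without nab-paclitaxel 1 it was 22 (36.1%, against 28.8%).

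After radiation alone, 7 factors fell and 0 rose, against 3.45% of all genes that fell and 2.48% that rose (5.93% in either direction). The 7 were EEF1A1, EIF4B, EIF2S3, EIF3A, EIF4G2, EIF3L and EIF2S3B, and 22 factors had groups that did not overlap, against 28.4% of all genes. Of the 61 factors, 43 had a negative log2 change, with a median of -0.13 against -0.02 for all genes. Under quantile normalization the median of the factors was -0.03 and that of all genes 0.00. The count of 7 changed with single libraries, and so did the share of all genes that passed. It was 0 without radiation 1 or 2 (2.48% and 2.35% of all genes) and 2 without radiation 3 (2.42%). It was 3 or 4 without any 1 control or combination library or without nab-paclitaxel 2 or 3 (3.5% to 5.76%). Without nab-paclitaxel 1 it was 11 (18% of the factors, against 9.59%). Without the 3 libraries that stood apart it was 19, of which 18 fell (31.1% of the factors, against 21.7% of all genes in that fit). Under quantile normalization it was 2, with EIF3I higher and EIF2S3B lower (3.28%, against 7.08%). After nab-paclitaxel alone, EIF3I, EIF4A3 and EIF2B2 rose and EIF4G3 fell, or 6.56% of the factors against 8.82% of all genes. By direction, 5.41% of all genes rose and 3.41% fell. The groups did not overlap in 19 factors, against 26.1% of all genes. Of the 61, 51 had a positive change with nab-paclitaxel, with a median of 0.16 against 0.04 for all genes. The median of the factors was 0.09 without nab-paclitaxel 1, against 0.03 for all genes, and 0.07 under quantile normalization, against 0.02. With a filter of 5 FPKM it was 0.16, against 0.10. In a fit of nab-paclitaxel and control alone 0 factors passed, but so did only 0.0588% of all genes. Without the 3 libraries that stood apart 9 passed (14.8%, against 13.5% of all genes in that fit). Leaving out any 1 library gave 3 to 6, with 3.85% to 8.68% of all genes. The radiation, nab-paclitaxel and combination comparisons share the control libraries.

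**Figure D2:**
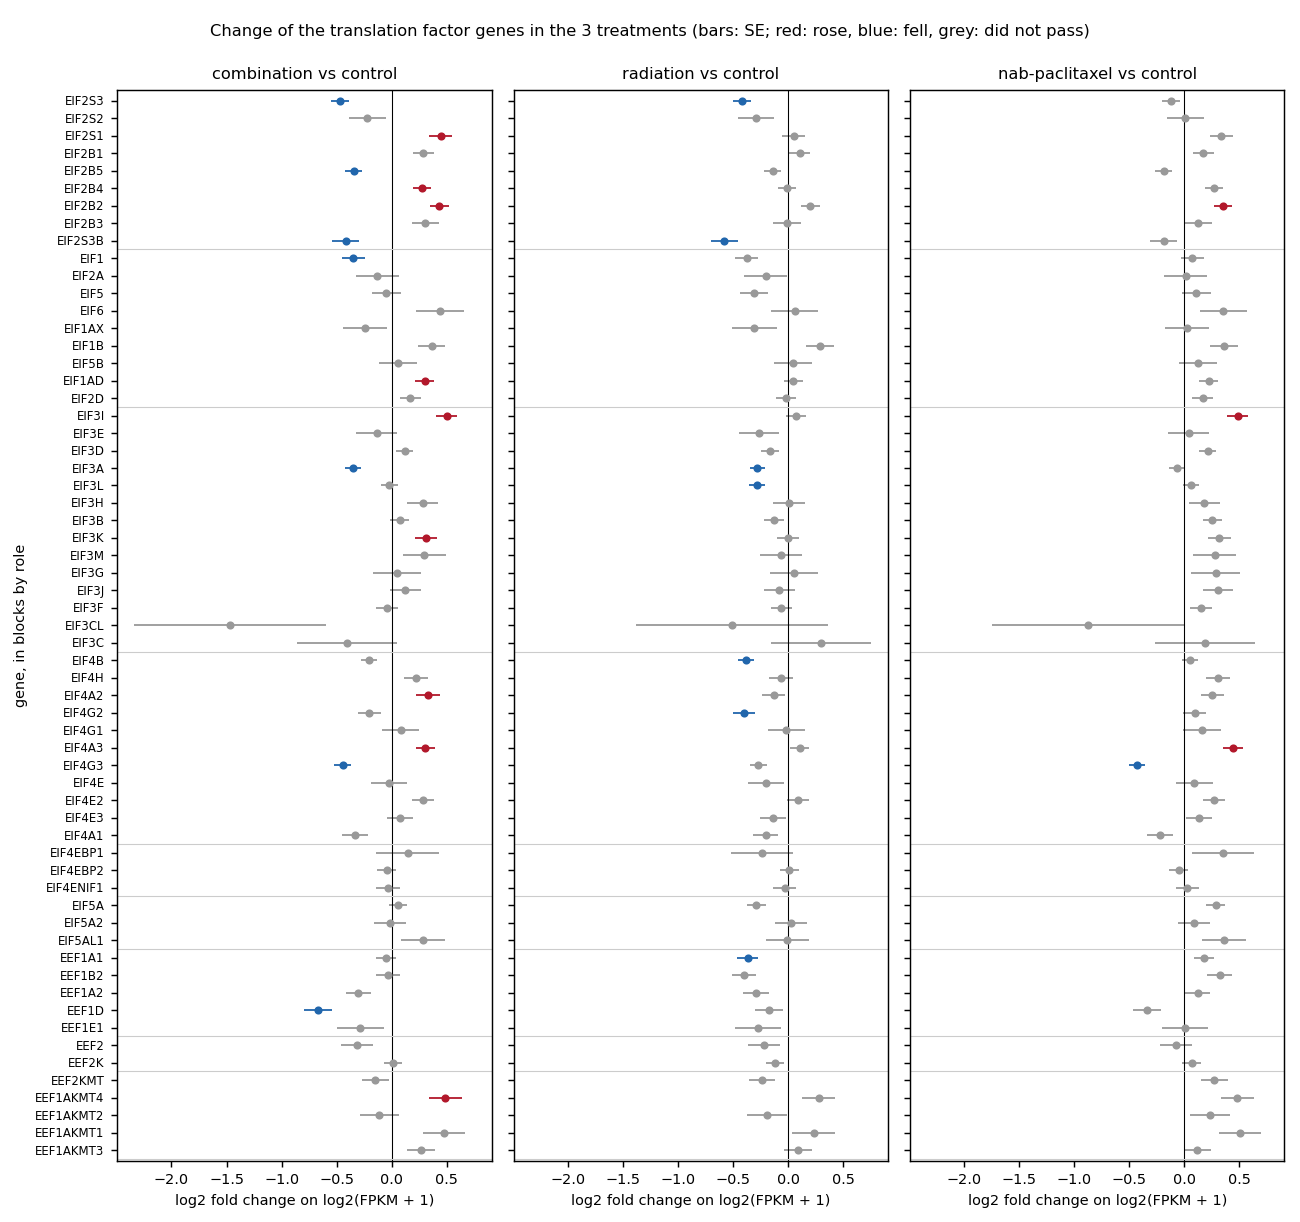
Log2 fold change on log2(FPKM + 1) with its SE for the 61 tested factors, in blocks by role, for the combination, radiation and nab-paclitaxel, each against control; red marks genes that rose, blue genes that fell and grey genes that did not pass. With radiation the 7 coloured points all lie below 0, while in the combination 9 lie above 0 and 7 below.

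Set against radiation alone, the combination had 5 factors higher (EIF3I, EIF5A, EIF4A2, EIF2S1 and EIF2B4) and 1 lower (EEF1D), or 9.84% of the factors against 7.75% of all genes (4.81% higher and 2.95% lower). The groups did not overlap in 29 factors, against 40.5% of all genes. Set against nab-paclitaxel alone, it had EIF1, EIF2S3 and EIF3A lower and 0 factors higher, or 4.92% against 3.92% (1.21% higher and 2.7% lower), and the groups did not overlap in 11 factors, against 20.9% of all genes. Against radiation the count was 0 without any 1 radiation library (1.82% to 2.21% of all genes) or without combination 1 or 3 (2.81% and 1.6%). It was 3 without combination 2 (4.92% of the factors, against 5.17%) and 11 without nab-paclitaxel 1 (18%, against 13.8%). Without the 3 libraries that stood apart it was 25 (41% of the factors, against 30.3% of all genes in that fit). Against nab-paclitaxel it was 0 without any 1 radiation or combination library or without nab-paclitaxel 2 (1.3% to 2.51% of all genes). It was 1 without control 1 or nab-paclitaxel 3 (3.17% and 2.44%) and 2 without control 3 or nab-paclitaxel 1 (3.31% and 3.67%). Without control 2 it was 5 (8.2% of the factors, against 5.39%), and without the 3 that stood apart it was 6 (9.84%, against 9.56%). The interaction of radiation and nab-paclitaxel, which asks whether the joint change differs from the sum of the single ones on the log2 scale, was passed by 0% of all genes and 0 factors in limma, and by 0 factors with voom on recovered fragments. EIF4G3 was the 1 factor with an unadjusted p under 0.05 (0.25 ± 0.11, adjusted p = 0.9997).

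Within eIF2, the mRNAs of the α and γ subunits moved in opposite directions in the combination. Of the 9 eIF2 and eIF2B genes, 3 rose and 3 fell there (median 0.27, against 0.00 for all genes). Of all genes, 12.2% rose and 10.6% fell there. Among the 9, 2 fell after radiation, against 3.45% of all genes, and 1 rose with nab-paclitaxel, against 5.41%. EIF2S1 (ENSG00000134001, hg38 chromosome 14, 67359997 to 67386516) encodes the α subunit, which carries the regulatory phosphorylation site, and EIF2S3 (ENSG00000130741, hg38 chromosome X, 24054716 to 24077971) encodes the γ subunit, which binds GTP and the initiator tRNA. EIF2S1 had 29.4, 33.5 and 30.2 FPKM in the combination, 23.2, 22.6 and 24.3 after radiation, 33.3, 26.6 and 26.6 after nab-paclitaxel, and 21.9, 25.4 and 20.5 in control. All 3 combination libraries lay above all 3 control and all 3 radiation libraries, with a change of 0.44 ± 0.11, adjusted p = 0.0121 against control, and 0.39 ± 0.11, adjusted p = 0.0463 against radiation. EIF2S3 had 94.6, 102 and 97.5 FPKM in the combination, 100.3, 102 and 103 after radiation, 131, 121 and 123 after nab-paclitaxel, and 128, 149.9 and 131 in control. The combination and radiation libraries lay below every control library. EIF2S3 fell in the combination (-0.47 ± 0.08, adjusted p = 0.00187 against control, and -0.35 ± 0.08, adjusted p = 0.0325 against nab-paclitaxel) and after radiation (-0.42 ± 0.08, adjusted p = 0.0103). Its nab-paclitaxel change was -0.12 ± 0.08, adjusted p = 0.354, though under quantile normalization limma passed it as lower (-0.33, adjusted p = 0.0436). EIF2S2, the β subunit, had 63.9 ± 6.26 FPKM in the combination, 60.8 ± 3.42 in radiation, 76.8 ± 21.4 in nab-paclitaxel and 75.1 ± 10.8 in control (SD, n = 3) and passed in none. With the block in the fit of combination and control, paired from these same values, it was lower in the combination (adjusted p = 0.0295). EIF2S3B, a copy of EIF2S3 on chromosome 12, averaged 3.23 FPKM. It fell with radiation (-0.58 ± 0.12, adjusted p = 0.0184) and in the combination (-0.42 ± 0.12, adjusted p = 0.0303). Of its 50-base words, 26.8% also occur in EIF2S3, and its level is uncertain for that reason.

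The promoters of these subunits differ at the start of the transcript, where a TOP tract would lie. The windows show 60 bases before and 25 from the annotated start (RefSeq, GRCh38.p14), 5′ to 3′ on the gene's strand, with capitals for a pyrimidine tract that begins within 10 bases of the start (C followed by at least 5 pyrimidines).
EIF2S1 (chr14:67360268-67360352, plus strand): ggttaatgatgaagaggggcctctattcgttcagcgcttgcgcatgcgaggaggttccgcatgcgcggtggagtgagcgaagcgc
EIF2S3 (chrX:24054896-24054980, plus strand): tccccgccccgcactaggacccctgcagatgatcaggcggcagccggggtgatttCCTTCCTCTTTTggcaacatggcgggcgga
EIF2S3 has such a tract, which begins 5 bases before the annotated start, and EIF2S1 has none in this window. Of the 54 factors with a RefSeq promoter entry, 23 had a tract in at least 1 entry. It was present in 20.8% of all 35116 promoter entries of the same length and in 24 of the 71 entries of the factors. The match describes letters and is no measured start.

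The ratio of EIF2S1 to EIF2S3 in FPKM, picked after the values of both genes were seen, was 0.311, 0.329 and 0.310 in the combination, 0.231, 0.222 and 0.237 after radiation, 0.255, 0.219 and 0.216 after nab-paclitaxel, and 0.172, 0.169 and 0.156 in control. The combination lay above both single treatments and these above control, with no overlap between the combination and any other group or between control and any other group. Radiation and nab-paclitaxel overlapped, with means of 0.230 ± 0.00784 and 0.230 ± 0.0217 (SD, n = 3). The calls of EIF2S1 and EIF2S3 in the combination against control held under all 22 alternatives. The call of EIF2S3 after radiation was lost without radiation 1 or 2 and under quantile normalization (adjusted p of 0.0524 to 0.128), and that against nab-paclitaxel in the 9 fits that left out any 1 library other than control 1, 2 or 3, without the filter, under quantile normalization, with the replicate block and in a fit of the groups compared alone (adjusted p of 0.0525 to 0.236). The call of EIF2S1 against radiation was lost in the 9 fits that left out any 1 library other than control 2 or 3 or nab-paclitaxel 1, without the filter, under quantile normalization and with the replicate block (adjusted p of 0.0543 to 0.149). The EIF2S3B calls were lost without control 2, or without radiation 1, 2 or 3 and without the filter (adjusted p of 0.0505 to 0.0746) for radiation, and without control 2 or 3, or without combination 1 or 3, without the filter, under quantile normalization and in a fit of the groups compared alone (adjusted p of 0.0509 to 0.117) for the combination.

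Of the 5 subunits of eIF2B, the exchange factor that reloads eIF2 with GTP, 2 rose and 1 fell in the combination. Of all genes, 12.2% rose and 10.6% fell there. EIF2B2 had 5.62, 5.11 and 5.38 FPKM in the combination, 4.33, 4.16 and 4.81 after radiation, 5.66, 4.86 and 4.59 after nab-paclitaxel, and 3.79, 3.71 and 3.66 in control. EIF2B2, the β subunit of the regulatory part, rose in the combination (0.43 ± 0.08, adjusted p = 0.00435) and with nab-paclitaxel (0.35 ± 0.08, adjusted p = 0.0291), and every treated library of those groups lay above every control library. EIF2B5 had 6.59, 5.53 and 6.27 FPKM in the combination, 7.38, 6.93 and 7.29 after radiation, 6.65, 7.32 and 6.80 after nab-paclitaxel, and 8.42, 7.67 and 8.02 in control. EIF2B5, the catalytic ε subunit, fell in the combination (-0.34 ± 0.08, adjusted p = 0.00909). EIF2B4 had 6.28, 5.82 and 5.91 FPKM in the combination, 4.595, 4.65 and 5.02 after radiation, 6.12, 6.09 and 5.72 after nab-paclitaxel, and 5.28, 4.77 and 4.36 in control. EIF2B4, the regulatory δ subunit, was higher in the combination than in control (0.27 ± 0.08, adjusted p = 0.0262) and than in radiation (0.28 ± 0.08, adjusted p = 0.0487). EIF2B1 (0.28 ± 0.10, adjusted p = 0.0514) and EIF2B3 (0.31 ± 0.13, adjusted p = 0.103) did not pass in the combination. With the block in the fit of combination and control, paired from these same values, they had adjusted p = 0.0268 and 0.0368, which is no independent evidence of a change. The ratio of EIF2B2 to EIF2B5, also picked after the values were seen, was 0.878 ± 0.0391 in the combination, 0.615 ± 0.0385 in radiation, 0.730 ± 0.105 in nab-paclitaxel and 0.463 ± 0.0174 in control (SD, n = 3). The EIF2B2 call in the combination held under the 21 alternatives that tested it, the filter of 5 FPKM having left it out. That of EIF2B5 was lost in a fit of the groups compared alone (adjusted p = 0.0507), that of EIF2B2 with nab-paclitaxel without control 1 or 3, or without nab-paclitaxel 1 or 2, or without radiation 1, without the filter, with the replicate block and in a fit of the groups compared alone (adjusted p of 0.0505 to 0.191), and that of EIF2B4 against control without control 3, or without combination 1 or 3, under TPM scaling and in a fit of the groups compared alone (adjusted p of 0.0681 to 0.0976). The EIF2B4 call against radiation was lost without nab-paclitaxel 2 or 3, or without radiation 1, 2 or 3, or without combination 1, 2 or 3, without the filter, with a filter of 5 FPKM, under TPM scaling, with the replicate block and by voom (adjusted p of 0.0512 to 0.170).

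**Figure D3:**
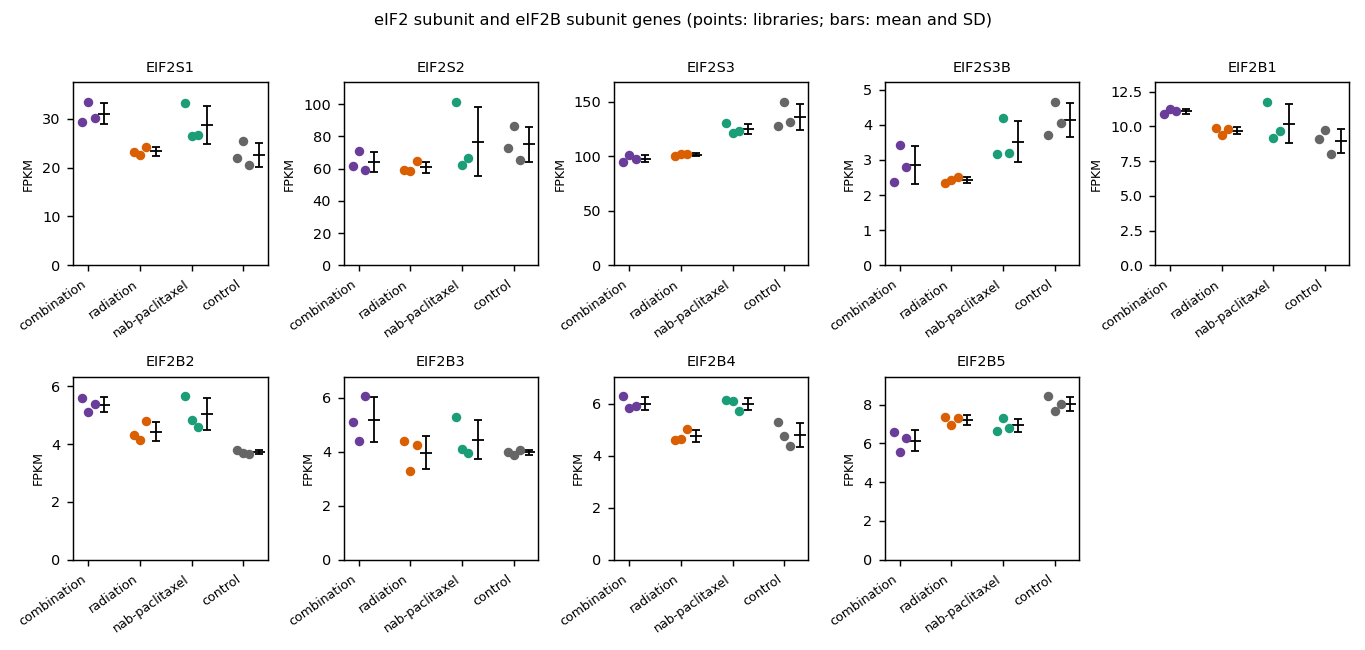
FPKM of the eIF2 and eIF2B subunit genes in each library (points) with the group mean and SD (bars, n = 3), for the combination, radiation, nab-paclitaxel and control. EIF2S1 and EIF2B2 have their highest mean in the combination, above every control library, and EIF2S3 and EIF2B5 lie below every control library there.

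Around the eIF2 switch, a list of 4 eIF2 kinases and 2 phosphatase subunits was examined. In the combination 1 rose and 1 fell, with a median of -0.03, against 22.9% of all genes in either direction. EIF2AK4 (GCN2), the kinase activated by uncharged tRNA, rose in the combination (0.60 ± 0.09, adjusted p = 0.00104 against control, and 0.41 ± 0.09, adjusted p = 0.0232 against radiation). PPP1R15B, a subunit that directs a phosphatase to eIF2α, fell in the combination (-0.29 ± 0.07, adjusted p = 0.0137). No other of the 6 passed in any comparison. The values for EIF2AK3 (PERK) and PPP1R15A (GADD34) in the combination were -0.02 ± 0.11, adjusted p = 0.931 and -0.05 ± 0.20, adjusted p = 0.886.

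Among the genes grouped under start-site choice and subunit joining, EIF1 fell and EIF1AD rose in the combination. The other 7 tested did not pass (median of the 9 0.06), and of all genes 10.6% fell and 12.2% rose. EIF1 holds the scanning ribosome until the start codon is found, and EIF1B is its close paralog. EIF1 had 114, 115 and 117 FPKM in the combination, 112, 113 and 115 after radiation, 188, 141 and 139.5 after nab-paclitaxel, and 150.3, 151 and 141 in control. The combination libraries lay below all control and all nab-paclitaxel libraries (-0.35 ± 0.10, adjusted p = 0.0323 against control, and -0.42 ± 0.10, adjusted p = 0.0482 against nab-paclitaxel). The radiation libraries lay in the same range, at -0.37 ± 0.10, adjusted p = 0.0602, which did not pass. EIF1B had 20.7, 21.8 and 20.02 FPKM in the combination, 19.1, 19.6 and 20.6 after radiation, 25.1, 18.4 and 19.6 after nab-paclitaxel, and 17.8, 17.4 and 13.3 in control. EIF1B did not pass in the combination (0.36 ± 0.13, adjusted p = 0.0612), with radiation (0.29 ± 0.13, adjusted p = 0.238) or with nab-paclitaxel (0.36 ± 0.13, adjusted p = 0.0947). With the block in the fit of combination and control, paired from these same values, EIF1B had adjusted p = 0.0206 in the combination. As a share of the FPKM of the 2 genes, EIF1B made up 15.3, 15.98 and 14.6% in the combination, 14.5, 14.8 and 15.2 after radiation, 11.8, 11.5 and 12.3 after nab-paclitaxel, and 10.6, 10.4 and 8.59 in control. Each treatment lay above control without overlap, and the combination and radiation overlapped.

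The promoters of this pair are shown because their shares moved, in windows and with capitals as above.
EIF1 (chr17:41688825-41688909, plus strand): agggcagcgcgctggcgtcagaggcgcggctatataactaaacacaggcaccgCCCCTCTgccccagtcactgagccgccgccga
EIF1B (chr3:40309647-40309731, plus strand): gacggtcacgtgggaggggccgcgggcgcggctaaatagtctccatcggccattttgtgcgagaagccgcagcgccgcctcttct
EIF1 has a pyrimidine tract that begins 7 bases before the annotated start and ends before it, and EIF1B has none in this window. Counted after the values were seen, a tract was present in 5 of the 5 factors with an entry that fell in the combination, in 2 of the 9 that rose (EIF4A2 and EIF3K), and in 15 of the 34 with an entry that did not pass. A gene counted if any of its entries had a tract, and EIF4G3 also has an entry without one. The 5 were EIF1, EIF2S3, EIF4G3, EIF2B5 and EIF2S3B, the last a copy of EIF2S3. In EIF1, EIF2B5 and EIF4G3 the tract ends before the annotated start, so by that start it lies outside the transcript. Whether the tract bears on the changes was not tested. The E-box CACGTG, searched on both strands of the promoter entries, is present in EIF1B. It occurred in 7.26% of all promoter entries and in 14 of the 71 entries of the factors. CCGGAAG, the ETS core, was found in 16 of the 71 entries against 10.3% of all entries.

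EIF1AD had 11.9, 9.35 and 10.9 FPKM in the combination, 9.18, 8.27 and 8.98 after radiation, 10.1, 9.82 and 10.2 after nab-paclitaxel, and 8.57, 8.28 and 8.63 in control. EIF1AD, which has an eIF1A-like domain, rose in the combination (0.30 ± 0.09, adjusted p = 0.0269). EIF2A, which can bind initiator tRNA apart from eIF2, was at 34.9 ± 4.85 FPKM in the combination and 38.6 ± 8.43 in control, and EIF5, the GTPase activator of eIF2, was at 34.1 ± 3.62 and 35.3 ± 5.00 FPKM (SD, n = 3). EIF6, which keeps the large subunit from joining early, spread between libraries (0.44 ± 0.22, adjusted p = 0.169 in the combination). With the block in the fit of combination and control, paired from these same values, EIF6 had adjusted p = 0.00676. The EIF1 call against control was lost in the 9 fits that left out any 1 library other than nab-paclitaxel 1, 2 or 3 and without the filter (adjusted p of 0.0512 to 0.0852), and that against nab-paclitaxel in the 9 fits that left out any 1 library other than control 2 or nab-paclitaxel 1 or 3, without the filter, under quantile normalization, with the replicate block and in a fit of the groups compared alone (adjusted p of 0.0580 to 0.232). The EIF1AD call was lost without control 1, 2 or 3, or without combination 1 or 3, under TPM scaling and in a fit of the groups compared alone (adjusted p of 0.0540 to 0.117).

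**Figure D4:**
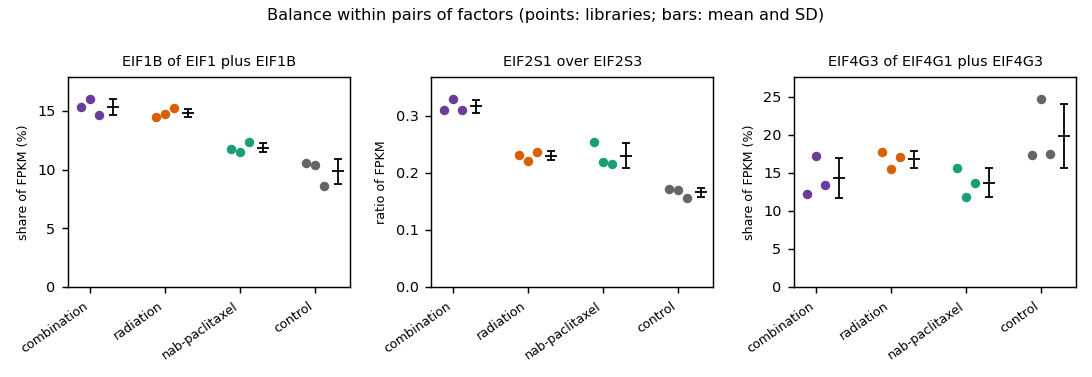
Balance within pairs of factors in each library (points) with the group mean and SD (bars, n = 3), for the combination, radiation, nab-paclitaxel and control: the EIF1B share of EIF1 plus EIF1B in FPKM (%), the ratio of EIF2S1 to EIF2S3, and the EIF4G3 share of EIF4G1 plus EIF4G3 (%). The first and second measures have their highest mean in the combination and their lowest in control.

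Of the 14 eIF3 genes, 2 rose and 1 fell in the combination (median 0.06), against 12.2% and 10.6% of all genes. After radiation 2 were lower, against 3.45% of all genes, and after nab-paclitaxel 1 was higher, against 5.41% (medians -0.07 and 0.20). EIF3I, a WD-repeat subunit, had the highest mean of the complex. EIF3I had 133, 120.4 and 135 FPKM in the combination, 97.3, 98.05 and 92.0 after radiation, 147, 122 and 117 after nab-paclitaxel, and 92.4, 88.5 and 92.6 in control. Each nab-paclitaxel and combination library exceeded each control and each radiation library. EIF3I rose in the combination (0.50 ± 0.09, adjusted p = 0.00334 against control, and 0.43 ± 0.09, adjusted p = 0.0206 against radiation) and with nab-paclitaxel (0.48 ± 0.09, adjusted p = 0.0127), and did not pass after radiation (0.07 ± 0.09, adjusted p = 0.759). EIF3A had 78.9, 78.8 and 74.9 FPKM in the combination, 80.4, 80.9 and 83.6 after radiation, 91.3, 95.04 and 97.4 after nab-paclitaxel, and 98.5, 105 and 94.7 in control. EIF3A, the largest subunit and the one on which the complex is built, went the other way. It fell in the combination (-0.35 ± 0.07, adjusted p = 0.00460 against control, and -0.28 ± 0.07, adjusted p = 0.0461 against nab-paclitaxel) and after radiation (-0.28 ± 0.07, adjusted p = 0.0381). EIF3L had 59.3, 64.1 and 64.1 FPKM in the combination, 52.7, 51.3 and 52.1 after radiation, 71.4, 62.6 and 65.1 after nab-paclitaxel, and 61.5, 65.7 and 63.1 in control. EIF3L, a peripheral subunit, fell after radiation (-0.28 ± 0.07, adjusted p = 0.0472), and its partner EIF3K rose in the combination (0.31 ± 0.10, adjusted p = 0.0491). EIF3L shares 41.1% of its exonic bases with the overlapping gene AL022311.1, which averaged 0.205 FPKM. EIF3E, the next highest subunit, had 94.7 ± 12.9 FPKM in the combination, 86.3 ± 6.76 in radiation, 109 ± 32.5 in nab-paclitaxel and 104 ± 17.4 in control (SD, n = 3). EIF3C and EIF3CL, near-identical copies, summed to 2.28, 3.40 and 2.05 FPKM in the combination, 6.98, 5.60 and 9.86 after radiation, 1.88, 15.04 and 2.65 after nab-paclitaxel, and 21.0, 6.46 and 3.30 in control, and how the authors' counting divided their reads is not known. Their control mean was 10.2 FPKM and 4.88 FPKM without control 1, and their nab-paclitaxel mean was 6.52 FPKM and 2.26 FPKM without nab-paclitaxel 2. The combination calls of EIF3I and EIF3A against control held under all 22 alternatives. The nab-paclitaxel call of EIF3I was lost in a fit of the groups compared alone (adjusted p = 0.148), and its call against radiation without radiation 1, 2 or 3, or without combination 1 or 3 and under quantile normalization (adjusted p of 0.0686 to 0.101). The radiation call of EIF3A was lost in the 11 fits that left out any 1 library other than nab-paclitaxel 1, under TPM scaling, under quantile normalization, with the replicate block, by voom and in a fit of the groups compared alone (adjusted p of 0.0505 to 0.547). Its call against nab-paclitaxel was lost in the 10 fits that left out any 1 library other than control 2 or nab-paclitaxel 1, without the filter, under TPM scaling, under quantile normalization, with the replicate block, by voom and in a fit of the groups compared alone (adjusted p of 0.0584 to 0.427). That of EIF3L was lost in the 11 fits that left out any 1 library other than nab-paclitaxel 1, without the filter, under quantile normalization, with the replicate block, by voom and in a fit of the groups compared alone (adjusted p of 0.0557 to 0.171), and that of EIF3K in the 9 fits that left out any 1 library other than control 1 or nab-paclitaxel 1 or combination 2, with a pseudocount of 0.1, without the filter, under TPM scaling, under quantile normalization and in a fit of the groups compared alone (adjusted p of 0.05004 to 0.160).

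In the cap-binding eIF4 group, 2 of 11 tested genes rose and 1 fell in the combination, against 12.2% and 10.6% of all genes. With nab-paclitaxel 1 rose and 1 fell, against 5.41% and 3.41%, and after radiation 2 fell, against 3.45%. The medians of the 11 were 0.07 in the combination, -0.14 after radiation and 0.13 with nab-paclitaxel. EIF4G3 (ENSG00000075151, hg38 chromosome 1, 20806292 to 21176888) encodes an eIF4G scaffold paralog. EIF4G3 had 8.54, 9.93 and 9.28 FPKM in the combination, 10.9, 10.1 and 10.7 after radiation, 8.88, 9.39 and 9.81 after nab-paclitaxel, and 12.4, 13.4 and 13.0 in control. Every treated library lay below every control library. EIF4G3 fell in the combination (-0.45 ± 0.08, adjusted p = 0.00204) and with nab-paclitaxel (-0.43 ± 0.08, adjusted p = 0.00956), and its radiation change did not pass (-0.27 ± 0.08, adjusted p = 0.0604). Its share of EIF4G1 plus EIF4G3 was 12.2, 17.2 and 13.4% in the combination, 17.7, 15.5 and 17.1 after radiation, 15.6, 11.8 and 13.6 after nab-paclitaxel, and 17.3, 24.7 and 17.5 in control, with control 2 highest. EIF4G1, the main scaffold, was lowest of its group in control 2, nab-paclitaxel 1 and combination 2 and passed in none. EIF4A3 had 36.8, 34.6 and 35.9 FPKM in the combination, 33.3, 30.5 and 29.3 after radiation, 44.1, 38.5 and 36.1 after nab-paclitaxel, and 27.2, 30.1 and 29.03 in control. EIF4A3, a helicase of the exon junction complex, rose with nab-paclitaxel (0.44 ± 0.09, adjusted p = 0.0143) and in the combination (0.30 ± 0.09, adjusted p = 0.0274). EIF4A2 had 104, 110.0 and 106 FPKM in the combination, 76.8, 76.6 and 78.0 after radiation, 116, 92.9 and 95.6 after nab-paclitaxel, and 83.7, 96.3 and 75.2 in control. EIF4A2, a helicase of the cap complex, was higher in the combination than in control (0.33 ± 0.11, adjusted p = 0.0431) and than in radiation (0.46 ± 0.11, adjusted p = 0.0253). It made up 99.2% of EIF4A1 plus EIF4A2 in the combination and 98.5% in control, a share set by the uncertain EIF4A1.

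EIF4B had 123, 113 and 121 FPKM in the combination, 104, 104 and 107 after radiation, 140.5, 146 and 142 after nab-paclitaxel, and 145, 128 and 139.9 in control. EIF4B, which stimulates the eIF4A helicase and had the highest mean of the group, fell after radiation (-0.38 ± 0.07, adjusted p = 0.0104), with each radiation library below each library of the other groups. EIF4G2 had 69.9, 81.8 and 75.9 FPKM in the combination, 66.0, 62.9 and 69.0 after radiation, 105, 86.4 and 89.4 after nab-paclitaxel, and 82.7, 98.4 and 81.8 in control. EIF4G2 (DAP5), an eIF4G relative without the eIF4E-binding part, also fell after radiation (-0.40 ± 0.10, adjusted p = 0.0454). EIF4H, a relative of EIF4B in function, did not pass (-0.06 ± 0.11, adjusted p = 0.818 after radiation). The cap-binding protein EIF4E was at 6.32 ± 0.706 FPKM in the combination, 5.47 ± 0.422 in radiation, 7.02 ± 1.68 in nab-paclitaxel and 6.53 ± 1.63 in control (SD, n = 3), and passed in none. EIF4E2, a cap-binding homolog that represses translation, made up 49.8% of EIF4E plus EIF4E2 in the combination, 49.5% in radiation, 47.3% in nab-paclitaxel and 43.7% in control. The EIF4G3 call in the combination held under all 22 alternatives, and those of EIF4G3 and EIF4A3 with nab-paclitaxel were lost in a fit of the groups compared alone (adjusted p = 0.131 and 0.153). The EIF4A3 call in the combination was lost without control 1 or 3, or without combination 1 or 3, under quantile normalization and in a fit of the groups compared alone (adjusted p of 0.0519 to 0.0890). For EIF4A2, the call against control was lost in the 9 fits that left out any 1 library other than control 2 or nab-paclitaxel 1 or 2, without the filter, with the replicate block and in a fit of the groups compared alone (adjusted p of 0.0526 to 0.151). That against radiation was lost without radiation 1, 2 or 3, or without combination 1, 2 or 3, without the filter and under quantile normalization (adjusted p of 0.0593 to 0.139). The EIF4B call was lost without radiation 1 or 2, under TPM scaling and under quantile normalization (adjusted p of 0.0567 to 0.200), and the EIF4G2 call in the 10 fits that left out any 1 library other than nab-paclitaxel 1 or combination 2, without the filter, under quantile normalization, with the replicate block and in a fit of the groups compared alone (adjusted p of 0.0519 to 0.176).

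None of the 3 tested 4E-binding proteins passed in any of the 6 comparisons in limma, in which 0% to 22.9% of all genes passed. EIF4EBP1 had 54.6, 28.0 and 41.3 FPKM in the combination, 27.6, 34.1 and 29.6 after radiation, 35.6, 58.8 and 46.8 after nab-paclitaxel, and 44.9, 22.9 and 44.9 in control. EIF4EBP1, the main repressor of eIF4E and a target of mTORC1, was lowest of its group in control 2, nab-paclitaxel 1 and combination 2, and its changes were 0.14 ± 0.29, adjusted p = 0.755 in the combination, -0.24 ± 0.29, adjusted p = 0.727 with radiation and 0.35 ± 0.29, adjusted p = 0.466 with nab-paclitaxel. EIF4EBP2 was at 23.0 ± 1.49 FPKM in the combination, 24.0 ± 0.844 in radiation, 23.0 ± 1.78 in nab-paclitaxel and 23.8 ± 2.03 in control (SD, n = 3). The ratio of EIF4EBP1 to EIF4E averaged 6.69 in the combination, 5.59 in radiation, 7.20 in nab-paclitaxel and 6.26 in control. EIF4EBP1 made up 63.1% of EIF4EBP1 plus EIF4EBP2 in the combination, 55.9% in radiation, 66.6% in nab-paclitaxel and 59.9% in control. Of 16 tested genes of mTORC1 and of the MNK kinases that phosphorylate eIF4E, 3 rose and 2 fell in the combination, with a median of -0.01, against 12.2% of all genes that rose and 10.6% that fell. DEPTOR, an inhibitor of mTOR (0.79 ± 0.11, adjusted p = 5.89e-04), MKNK2, an eIF4E kinase (0.72 ± 0.17, adjusted p = 0.0107), and RHEB, the GTPase that activates mTORC1 (0.47 ± 0.14, adjusted p = 0.0312), rose, and the stress-induced mTORC1 inhibitors DDIT4 (-0.54 ± 0.17, adjusted p = 0.0372) and SESN2 (-0.37 ± 0.11, adjusted p = 0.0269) fell. DDIT4 was also the 1 gene of the list that fell after radiation (-0.75 ± 0.17, adjusted p = 0.0225), against 3.45% of all genes. With nab-paclitaxel, DEPTOR rose (0.39 ± 0.11, adjusted p = 0.0467) and TSC1, an upstream brake on mTORC1, fell (-0.38 ± 0.09, adjusted p = 0.0308), against 5.41% and 3.41% of all genes. Against radiation, the combination had DEPTOR higher (0.65 ± 0.11, adjusted p = 0.00634) and MKNK1 lower (-0.33 ± 0.09, adjusted p = 0.0395), against 4.81% and 2.95% of all genes.

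**Figure D5:**
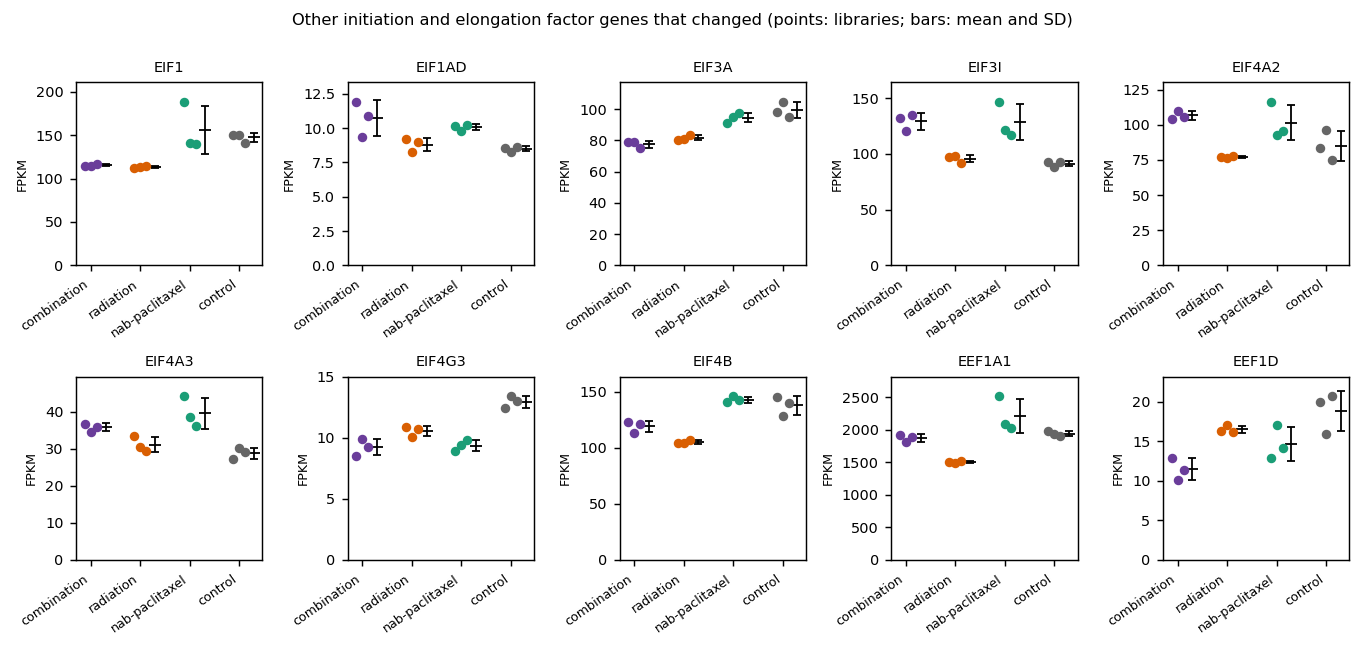
FPKM of 10 further factors that changed, in each library (points) with the group mean and SD (bars, n = 3), for the combination, radiation, nab-paclitaxel and control. EEF1A1 and EIF4B lie lowest in radiation, EEF1D has its lowest mean in the combination, and EIF4G3 lower in each treatment than in control.

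Of the elongation factors, EEF1A1 fell after radiation and EEF1D fell in the combination, against 3.45% and 10.6% of all genes. The 5 tested genes grouped under eEF1 were EEF1A1, EEF1A2, EEF1B2, EEF1D and EEF1E1, the last placed there by its symbol. Their median was -0.28 in the combination, which is the value of EEF1E1, -0.29 after radiation and 0.12 with nab-paclitaxel. EEF1A1 (ENSG00000156508, hg38 chromosome 6, 73515750 to 73523797) encodes the factor that brings aminoacyl-tRNA to the ribosome. Its 3 radiation values lay below those of all other libraries, at 1503 ± 17.9 FPKM after radiation against 1940.3 ± 40.1 FPKM in control (SD, n = 3), a change of -0.37 ± 0.09, adjusted p = 0.0385. Its change in the combination was -0.05 ± 0.09, adjusted p = 0.720. Of its 50-base words, 20.4% also occur in other genes, mainly its copy EEF1A1P5. EEF1D had 12.9, 10.1 and 11.3 FPKM in the combination, 16.2, 17.0 and 16.2 after radiation, 12.9, 17.1 and 14.1 after nab-paclitaxel, and 19.9, 15.9 and 20.7 in control. EEF1D, part of the complex that reloads eEF1A with GTP, was lower in the combination than in control (-0.67 ± 0.12, adjusted p = 0.00330) and than in radiation (-0.50 ± 0.12, adjusted p = 0.0350). EEF1D shares 34.0% of its exonic bases with genes on the opposite strand, of which AC067930.6 averaged 0.126 FPKM. EEF1B2, another exchange subunit, did not pass after radiation (-0.40 ± 0.11, adjusted p = 0.0594), nor did EEF1A2, the tissue-restricted eEF1A (-0.29 ± 0.12, adjusted p = 0.187). EEF1A2 made up 4.64% of EEF1A1 plus EEF1A2 in the combination, 5.76% in radiation, 5.29% in nab-paclitaxel and 5.52% in control. EEF2 did not pass (-0.32 ± 0.15, adjusted p = 0.140 in the combination), and neither did EEF2K, the kinase that inhibits it (0.01 ± 0.08, adjusted p = 0.949). With the block in the fit of combination and control, paired from these same values, EEF2 had adjusted p = 0.0260. The EEF1D call against control held under all 22 alternatives. Its call against radiation was lost without radiation 1, 2 or 3, or without combination 1, 2 or 3, without the filter, under TPM scaling and with the replicate block (adjusted p of 0.05004 to 0.118). The EEF1A1 call was lost in the 9 fits that left out any 1 library other than nab-paclitaxel 1, 2 or 3, without the filter, under quantile normalization and with the replicate block (adjusted p of 0.0513 to 0.445).

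EEF1A1, EEF2 and EIF4B are known TOP mRNAs, and their promoters are shown for that tract, in windows and with capitals as above.
EEF1A1 (chr6:73521008-73521092, minus strand): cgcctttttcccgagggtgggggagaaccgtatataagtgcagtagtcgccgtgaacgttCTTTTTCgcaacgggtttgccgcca
EEF2 (chr19:3985439-3985523, minus strand): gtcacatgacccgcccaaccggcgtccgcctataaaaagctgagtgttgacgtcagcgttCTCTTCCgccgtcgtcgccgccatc
EIF4B (chr12:53006396-53006480, plus strand): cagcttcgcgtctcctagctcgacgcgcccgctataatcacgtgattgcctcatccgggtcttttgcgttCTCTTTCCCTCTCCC
In EEF1A1 and EEF2 the tract begins at the annotated start itself, and in EIF4B it begins 10 bases after it. Of 9 tested TOP mRNAs of the translation machinery, 0 rose and 2 fell after radiation (EEF1A1 and EIF4B), against 3.45% of all genes that fell, with a median of -0.22 against -0.02 for all genes. In the combination 1 fell (EEF1D), against 10.6% of all genes, with a median of -0.08. With nab-paclitaxel 0 passed, against 8.82% of all genes in either direction, and the median was 0.06. Of 5 tested poly(A)-binding proteins and partners, 0 passed in any comparison, where 0% to 22.9% of all genes passed. PABPC1 had -0.11 ± 0.08, adjusted p = 0.526 after radiation. Of 8 termination, recycling and rescue factors (median 0.15 in the combination, where 12.2% of all genes rose, against 5.41% with nab-paclitaxel), PELO rose with nab-paclitaxel (0.27 ± 0.07, adjusted p = 0.0425) and in the combination (0.30 ± 0.07, adjusted p = 0.0124 against control, and 0.30 ± 0.07, adjusted p = 0.0299 against radiation), as did its partner in rescuing stalled ribosomes, HBS1L, in the combination (0.41 ± 0.14, adjusted p = 0.0480).

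EIF5A had 96.6, 90.1 and 97.2 FPKM in the combination, 72.6, 75.4 and 74.7 after radiation, 114, 114 and 105 after nab-paclitaxel, and 98.1, 81.4 and 93.8 in control. EIF5A, the sole known protein with the amino acid hypusine together with its paralog EIF5A2, was higher in the combination than in radiation (0.35 ± 0.08, adjusted p = 0.0314), with no overlap. Against control it had 0.06 ± 0.08, adjusted p = 0.662 in the combination, -0.29 ± 0.08, adjusted p = 0.0681 with radiation and 0.28 ± 0.08, adjusted p = 0.0571 with nab-paclitaxel. EIF5A2 made up 4.33% of EIF5A plus EIF5A2 in the combination, 5.59% in radiation, 4.05% in nab-paclitaxel and 4.64% in control. The copy EIF5AL1 shares 15.4% of its 50-base words with other genes. Hypusine is made from the polyamine spermidine. Of 8 tested genes of hypusination and of polyamine synthesis, breakdown and control, 2 rose in the combination, against 12.2% of all genes, and 3 with nab-paclitaxel, against 5.41% (medians 0.07 and 0.30). SMS, spermine synthase, which turns spermidine into spermine, rose in the combination (0.58 ± 0.11, adjusted p = 0.00308 against control, and 0.67 ± 0.11, adjusted p = 0.00582 against radiation) and with nab-paclitaxel (0.60 ± 0.11, adjusted p = 0.00961). AZIN1, the antizyme inhibitor, rose in the combination (0.35 ± 0.11, adjusted p = 0.0453). With nab-paclitaxel, ODC1, the first enzyme of polyamine synthesis (0.33 ± 0.09, adjusted p = 0.0470), and OAZ1, the antizyme that leads to its breakdown (0.33 ± 0.09, adjusted p = 0.0494), rose as well. The calls of this list were not followed under the alternatives. In a fit of nab-paclitaxel and control alone, only 0.0588% of all genes passed. The EIF5A call was lost without radiation 1, 2 or 3, or without combination 1 or 3, without the filter, under TPM scaling, under quantile normalization and with the replicate block (adjusted p of 0.0568 to 0.392).

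The methyltransferases that modify eEF1A and eEF2 were low, the highest mean being 3.64 FPKM (EEF2KMT). EEF2KMT had 3.27, 2.66 and 3.80 FPKM in the combination, 3.17, 2.93 and 2.80 after radiation, 4.28, 5.24 and 4.48 after nab-paclitaxel, and 4.29, 3.19 and 3.62 in control. EEF1AKMT4 had 3.63, 2.76 and 2.97 FPKM in the combination, 2.47, 2.82 and 2.39 after radiation, 3.87, 2.98 and 2.53 after nab-paclitaxel, and 2.20, 1.39 and 2.29 in control. EEF1AKMT4, which methylates a lysine of eEF1A, rose in the combination (0.49 ± 0.15, adjusted p = 0.0371), with all 3 libraries above control. Of the 5 tested methyltransferases it was the 1 that passed without the block, where 12.2% of all genes rose. With the block in the fit of combination and control, paired from these same values, EEF1AKMT1 was also higher in the combination (0.47 ± 0.12, adjusted p = 0.0299). EEF1AKMT4 shares 26.3% of its exonic bases with the readthrough gene EEF1AKMT4-ECE2, and its call was lost without control 2, or without radiation 1 or 3, or without combination 1 or 3, without the filter, under TPM scaling and in a fit of the groups compared alone (adjusted p of 0.0520 to 0.132).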

How the data were processed

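Messenger RNA of TFK1 cells was sequenced in 12 libraries, 3 for each of 4 groups. The authors deposited 1 table of FPKM values on hg38, the build named in the submitters' processing notes. Which aligner and counter made it, and whether they used strand, is not given in the sources used here. All columns of sample values were used. FPKM times gene length gave whole multiples of 1 step for 100% of non-zero values (within 0.05 fragments), from which fragments were recovered. The total implied by that step was 0.922 to 1.064 times the library's recovered total, so the deposited FPKM were not scaled by the library's own total. Gene lengths and exons were checked against GENCODE 29.

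From these values log2(FPKM + 1) was computed and fitted with limma 3.58.1 (R 4.3.3), with a mean-variance trend, all 4 groups in 1 fit, 13609 genes whose mean reached 1 FPKM, and Benjamini-Hochberg adjustment within each comparison. P-values are two-sided. In the main fit they weigh a difference against the spread between these libraries, pooled over the 4 groups and drawn partly from other genes of similar level. Libraries with the same replicate number deviated together between combination and control (r = 0.233, 0.543 and 0.172 over genes). Other pairs of groups did not meet this in every replicate. The block in the fit of combination and control took the numbers to pair those groups. That pairing was read from the same values and is not stated by the labels. The largest r is that of control 2 and combination 2, which stood apart. P-values with that block depend on the pairing and are no independent evidence of a change.

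Named were all factors passing in any comparison, the 2 highest of each role, both genes of each ratio, and those under 1 FPKM. Factors and lists were chosen with earlier results of these data known. Alternatives were a pseudocount of 0.1, a filter of 5 FPKM or none, TPM scaling, quantile normalization, voom on recovered fragments, a replicate block, a fit of the groups compared alone and leaving out each library. Leaving out 3 libraries, and the block with only the groups compared, were added after the data were seen. Promoters came from RefSeq (GRCh38.p14).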

Additional observations from a re-analysis of the deposited data

How the results depend on the processing

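Of the 36 calls of single factors, 7 held under every alternative that tested them, and none changed direction in any. Of the 7, EIF2B2 in the combination was not tested with the filter of 5 FPKM, which its mean did not reach, and the other 6 were tested in all 22. Calls lost numbered 18 without the filter, 18 in a fit of the groups compared alone, 16 under quantile normalization, 13 with the replicate block, 10 under TPM scaling, 4 with voom, 1 with a filter of 5 FPKM and 1 with a pseudocount of 0.1. In what follows, percentages in brackets are of all genes tested in the same fit. The number of factors that passed after radiation was 7 (5.93%), against 3 without the filter (1.45%) and 2 under quantile normalization (7.08%). It was 3 with the replicate block (3.9%) and 19 without control 2, nab-paclitaxel 1 and combination 2 (21.7%). With nab-paclitaxel it was 4 (8.82%), against 0 in a fit of the groups compared alone (0.0588%) and 9 without those 3 libraries (13.5%). In the combination it was 16 (22.9%), against 15 with the replicate block over all libraries (19.5%). It was 33 with the block in a fit of the 2 groups compared (37.6%) and 8 in the fit of those groups without it (15.4%). Without the 3 libraries it was 27 (37.1%). Set against radiation, the combination had 6 (7.75%), against 1 without the filter (1.49%) and 3 under TPM scaling (5.47%). It had 2 under quantile normalization (6.33%) and 2 with the replicate block (4.45%). In a fit of the groups compared alone it had 14 (18.4%), and without the 3 libraries 25 (30.3%). Set against nab-paclitaxel it had 3, against 0 without the filter, 0 under quantile normalization, 0 with the replicate block, 0 in a fit of the groups compared alone and 6 without the 3 libraries. With 1 library left out, the counts ran from 0 to 11 after radiation (2.35% to 9.59%) and 3 to 6 with nab-paclitaxel (3.85% to 8.68%). In the combination they ran from 8 to 22 (14.4% to 28.8%). Set against radiation they ran from 0 to 11 (1.6% to 13.8%), and against nab-paclitaxel from 0 to 5 (1.3% to 5.39%). The interaction gave 0 factors in every alternative (0% to 0.0129%). Of the 84 group means of shares, ratios and summed levels, 2 moved by over 1.5 times with 1 library left out, both of EIF3C plus EIF3CL: 4.88 FPKM without control 1, against 10.2 FPKM, and 2.26 FPKM without nab-paclitaxel 2, against 6.52 FPKM. In each of these the cause was not tested. With 3 libraries a group, changes smaller than the spread between libraries were not detectable.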
